A study of Mus musculus with 29 samples.

Results

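Of the 110715 regions of open chromatin counted across sorted mouse retinal populations, 18233 (16.5%) were open in all 6 populations: bipolar cells as a whole (pan-bipolar), ON bipolar cells, OFF bipolar cells, rods, blue cones and green cones. Each region was 201 bases long. A region was taken as open in a population when its middle base lay inside a peak of both replicate libraries of that population, so membership rested on peaks in 12 libraries. The members were thus chosen by the peaks of those libraries, and the read counts of those 12 libraries are therefore given as a description. The sequence and position of the regions, 2 further green cone libraries and the RNA of the same cell populations were not used in the choice.

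ATAC-seq inserts sequencing adapters into accessible DNA, so that its reads pile up where chromatin is free of nucleosomes. The regions accessible in nearly every cell type are typically promoters with a high density of CpG dinucleotides, where general factors such as SP1, NRF1 and ETS proteins bind, together with sites of CTCF, the protein that with cohesin anchors chromatin loops. Enhancers open in photoreceptors and bipolar cells are known for binding sites of the homeodomain proteins CRX and OTX2, whose favoured letters are TAATCC, and for E-boxes such as CAGATG, read by bHLH proteins.

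The study compared sister cell types of the retina: light-sensing photoreceptors and the bipolar interneurons that receive their signals. Bipolar cells were sorted at postnatal day 42 to 48 from mice of genotype Otx2-GFP+/- (pan-bipolar RNA) or Otx2-GFP+/-; Grm6-YFP+/+ (all bipolar ATAC-seq, and ON and OFF bipolar RNA). These genotypes are the labels'. The paper describes isolating bipolar cells as a whole from Otx2-GFP mice, so Grm6-YFP in the pan-bipolar ATAC-seq mice is uncertain. All bipolar mice therefore carried GFP knocked into 1 copy of Otx2, which labels bipolar cells strongly and photoreceptors weakly. YFP driven by the Grm6 promoter separated ON from OFF bipolar cells, the OFF cells were sorted a second time, and an ON type with little YFP probably fell outside both gates. Rods came from Nrl-eGFP mice, blue cones from Nrl-eGFP;NrlKO mice, in which photoreceptors that would be rods become cones like blue cones, and green cones from Opn1mw-GFP mice, all at day 56 and from an earlier study. Class, study and age cannot be told apart in any comparison of bipolar cells with photoreceptors. There were 2 ATAC-seq libraries a population and 3 RNA-seq libraries for each population but green cones, which have none in the table used here. The labels do not say which animals each library came from, so p-values measure the spread between these libraries.

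Counted reads ranged from 4176776 to 12345845 an ATAC-seq library and from 12329548 to 26266746 an RNA-seq library. Replicates correlated at a Pearson's r of 0.972 to 0.985 across genes in RNA and 0.866 to 0.959 across regions in ATAC-seq, a description in which genes and regions are not independent replicates. The summed RNA of 5 rod marker genes was 1394000 to 2019000 normalised counts in rods, 18530 to 22920 in pan-bipolar cells, 16790 to 20460 in ON bipolar cells and 861 to 1394 in OFF bipolar cells. That of 6 bipolar marker genes was 7238 to 8117 in rods and 32590 to 37790 in blue cones, against 114900 to 144500 in the bipolar libraries. The summed RNA of 5 cone marker genes was 1411000 to 1634000 in blue cones, 40490 to 66190 in pan-bipolar cells, 4047 to 4666 in ON and 20730 to 89730 in OFF bipolar cells. OFF cells thus had the least rod RNA of the bipolar populations and more cone RNA than ON cells. Their part in the results was not tested. Lists for Müller glia, amacrine, ganglion, horizontal, microglial and vascular cells (no gene at 0 in all 15 libraries) each summed to between 15.04 and 4062 normalised counts.

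The kinds of sequence found among the members are shown by 8 of them, as the plus strand of GRCm38 read 5′ to 3′. The first pair lay far from any annotated start and held the CTCF consensus, in capitals. Normalised ATAC-seq counts over the 12 libraries ran from 294 to 481 in the first and from 294 to 689 in the second.
CTCF, intergenic, 60170 bases upstream of Chaserr, chr7:73618465-73618665: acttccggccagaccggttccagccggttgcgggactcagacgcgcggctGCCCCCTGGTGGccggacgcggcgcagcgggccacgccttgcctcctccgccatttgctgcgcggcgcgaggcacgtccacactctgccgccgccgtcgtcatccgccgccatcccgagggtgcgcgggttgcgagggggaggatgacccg
CTCF, intergenic, 25040 bases upstream of Zfp287, chr11:62756836-62757036: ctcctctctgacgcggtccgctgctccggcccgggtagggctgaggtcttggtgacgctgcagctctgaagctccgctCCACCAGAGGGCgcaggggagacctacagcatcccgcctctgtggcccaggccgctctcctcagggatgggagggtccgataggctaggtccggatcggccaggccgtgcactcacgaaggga

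The next 3 were distal members with repeated motifs for retinal factors: capitals mark TAATCC in the first pair (306 to 590 and 221 to 882 normalised counts) and CAGCTG in the last (684 to 1384).
TAATCC, intronic, 1762 bases upstream of Mir124a-2, chr3:17793800-17794000: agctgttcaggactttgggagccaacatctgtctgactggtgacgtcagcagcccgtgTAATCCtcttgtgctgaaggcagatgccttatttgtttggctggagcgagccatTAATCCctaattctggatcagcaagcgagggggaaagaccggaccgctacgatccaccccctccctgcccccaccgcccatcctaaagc
TAATCC, intronic, 36093 bases upstream of Klhl35, chr7:99429811-99430011: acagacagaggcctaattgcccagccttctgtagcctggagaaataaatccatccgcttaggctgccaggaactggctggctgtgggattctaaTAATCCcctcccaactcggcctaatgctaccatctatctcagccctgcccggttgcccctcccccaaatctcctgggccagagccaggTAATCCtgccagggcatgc
E-box, intronic, 8925 bases downstream of the Phf19 start, chr2:34904951-34905151: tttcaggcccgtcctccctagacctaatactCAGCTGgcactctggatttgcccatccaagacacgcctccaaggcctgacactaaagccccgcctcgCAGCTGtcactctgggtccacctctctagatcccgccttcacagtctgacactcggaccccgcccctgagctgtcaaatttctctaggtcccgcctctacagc

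Promoters of the housekeeping kind were represented by Qdpr, which makes an enzyme that regenerates tetrahydrobiopterin, and Adss, an enzyme of purine synthesis. Capitals mark GC boxes (GGGCGG) and, in Qdpr, the CCAAT box AGCCAAT.
Qdpr, 173 bases upstream of the start, chr5:45450302-45450502: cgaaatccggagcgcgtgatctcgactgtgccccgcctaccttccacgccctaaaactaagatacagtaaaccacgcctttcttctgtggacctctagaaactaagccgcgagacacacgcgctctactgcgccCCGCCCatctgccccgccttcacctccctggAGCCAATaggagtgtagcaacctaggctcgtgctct
Adss, 155 bases upstream of the start, chr1:177796564-177796764: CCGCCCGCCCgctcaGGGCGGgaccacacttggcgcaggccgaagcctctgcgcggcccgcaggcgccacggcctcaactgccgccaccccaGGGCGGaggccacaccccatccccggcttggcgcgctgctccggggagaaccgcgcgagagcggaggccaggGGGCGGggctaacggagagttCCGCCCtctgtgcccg

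The last was open everywhere by peak call at Gnb3, a gene that rods, cones and bipolar cells use very unequally. Capitals mark TAATCC and CAGCTG.
Gnb3, 316 bases upstream of the start, chr6:124840491-124840691: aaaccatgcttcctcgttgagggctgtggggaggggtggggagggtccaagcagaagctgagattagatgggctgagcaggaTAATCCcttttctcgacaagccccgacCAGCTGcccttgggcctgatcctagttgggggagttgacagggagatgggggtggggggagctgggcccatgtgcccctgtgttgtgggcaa

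Promoters made up most of the members. A region was called a promoter when its middle lay from 1000 bases before to 100 bases after a RefSeq transcription start. By that rule 10441 members (57.3%) were promoters and 7792 were TSS-distal, whereas 6079 of the other 92482 regions (6.57%) were promoters. By the number of populations in which a region was open, the promoter share was 3.995% at 0, 4.54% at 1, 4.45% at 2, 8.09% at 3, 11.9% at 4, 18.4% at 5 and 57.3% at 6. It differed little from 0 to 2 populations and most between 5 and 6. Openness was also uneven in number, with 6476 regions open in 5 populations and 6589 in 4 but 18233 in all 6. Regions open only in the 3 bipolar populations numbered 8755, those open only in the 3 photoreceptor populations 1526 and those open in all but rods 1788.

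Green cone libraries from a double sort, which the rule did not use, gave a check of openness in green cones only. By the rule every member was open in green cones, regions open in fewer populations need not be, and bipolar-only regions were closed there. Differences in share between these groups were thus partly set in advance. Of the members, 15640 (85.8%) lay in a peak of both double-sorted libraries and 97.2% in at least 1. The share in both fell to 54.1% of regions open in 5 populations, 37.3% in 4, 13.6% in 3 and 1.59% in 0. Among members it was 92.3% for promoters and 77.1% for TSS-distal regions. For TSS-distal regions it was 66.1% for those open in all but rods, 42.5% for photoreceptor-only and 0.220% for bipolar-only regions.

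**Figure D1:**
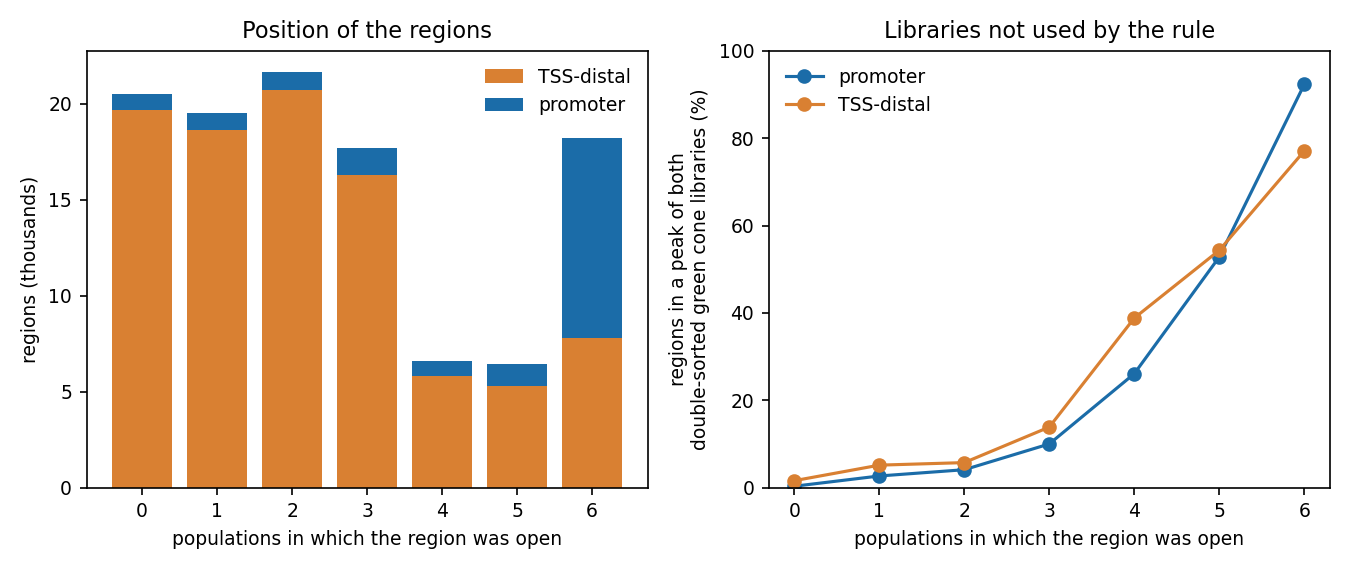
Left, regions (axis in units of 1000) by the number of populations in which they were open (0 to 6), split into promoters and TSS-distal regions; right, percent of regions at each number that lay in a peak of both double-sorted green cone libraries. The bar at 6 is mostly promoter (57.3%), and 85.8% of its regions recur in the double-sorted cells.

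Many members were open by a wide margin, and others barely. The weakest of a member's 12 peaks had a −log10 q of 1.37 at the lowest, 23.8 in the median and 303 at the highest. That median was 41.4 in promoters and 11.1 in TSS-distal members. Just outside the rule lay 3661 regions with a peak in 11 of the 12 libraries, of which the missing library was green cone 2 for 870, ON bipolar 1 for 596 and ON bipolar 2 for 567. In the library without a peak their median was 10.8 to 22.5 normalised counts, where members had medians of 127 to 207 and 5th percentiles of 28.0 to 40.9. Of these near members 20.02% were promoters.

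TSS-distal members sat nearer to genes than other distal regions did. Their median distance to a start was 13160 bases, against 30820 in other TSS-distal regions, 52140 in bipolar-only and 17020 in photoreceptor-only ones. By annotation 3820 were intronic, 2993 intergenic, 643 in exons outside the coding sequence and 336 in coding exons. A start in GENCODE that RefSeq lacks lay at 1382 of them (17.7%), compared with 5.77% of other TSS-distal regions. Counting those as promoters too raised the promoter share to 64.8% of members and 11.96% of the rest.

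Sequence composition differed between promoter and TSS-distal members, with overlap. The CpG ratio, observed CpG over that expected from base content, had a median of 0.863 in promoter members and 0.381 in TSS-distal members, against 0.626 and 0.214 in the other promoters and other TSS-distal regions. It reached at least 0.6 in 87.8% of promoter members and 31.0% of TSS-distal members, compared with 53.2% and 7.62% of the rest. Median GC was 66.7% in promoter and 55.2% in TSS-distal members, against 61.7% and 48.3%. Among TSS-distal members, the 2419 with a CpG ratio of at least 0.6 lay a median of 1109 bases from a start, and 921 of them (38.1%) were at a GENCODE start. The 5373 below it lay at 19700 bases, with 461 (8.58%) at such a start.

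To ask which short sequences the members carry, 14 motifs were searched on both strands, with overlapping matches counted separately. The promoter members were rich in letters of general factors. The GC box GGGCGG, read by SP and KLF proteins, was in 69.0% of promoter members, 45.4% of other promoters and 17.0% of all regions. The ETS letters CCGGAAG were in 18.7% against 4.03% (3.22% of all regions), and the NRF1 letters GCATGCGC in 5.52% against 1.61% (1.07%). AGCCAAT, the CCAAT box of NF-Y, was in 11.3% against 5.10% (4.40%). TGACGTCA, read by CREB and ATF proteins, was in 3.85% against 1.46% (0.845%), and AAGATGG, read by YY1, in 5.96% against 2.62% (3.65%). Retinal letters were sparser at these promoters than at other promoters. TAATCC was in 3.62% against 9.74% (21.8% of all regions), CAGATG in 5.48% against 10.6% (22.4%) and CAGCTG in 10.4% against 15.4% (18.1%). Base content also differed, with a median GC of 66.7% in promoter members and 61.7% in other promoters. Motif shares were not adjusted for it, and its part in these differences was not tested.

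TSS-distal members differed from promoters and from distal regions open in fewer populations. The CTCF consensus was in 898 of them (11.5%), compared with 5.75% of all TSS-distal regions, 8.36% of bipolar-only, 8.60% of all-but-rods and 0.348% of photoreceptor-only ones. It was in 1.08% of promoter members and 5.10% of all regions. Across TSS-distal regions its share went from 3.12% at 0 open populations through 3.69%, 3.56%, 8.08%, 9.60% and 11.5% to 11.5% at 6. TAATCC was in 19.1% of TSS-distal members, below the 24.6% of all TSS-distal regions and the 48.0% of photoreceptor-only ones and above the 14.8% of bipolar-only ones. CAGATG was in 18.6%, against 25.0% of all, 38.8% of bipolar-only and 15.2% of photoreceptor-only ones. CAGCTG was in 17.9%, against 19.1%, 27.5% and 13.3%. The GC box was in 26.9%, against 9.36% of all TSS-distal regions. These shares depended on distance from a start. Of the 5355 TSS-distal members over 5000 bases away, 23.49% had TAATCC, 22.04% CAGATG and 19.96% CAGCTG. The CAGCTG share was then not below the 19.1% of all TSS-distal regions, which were not limited by distance. The GC box was in 857 of those 5355, a lower share than in all TSS-distal members. The homeodomain letters TAATTA and TAATTG were in 2.95% and 4.39% of TSS-distal members (5.93% and 7.70% of all TSS-distal regions; 5.22% and 6.91% of all regions). TGANTCA, read by AP-1, and AAGGTCA, read by nuclear receptors, were in 5.30% and 2.76% (7.87% and 4.62% of all TSS-distal; 7.12% and 4.19% of all regions). None of the 14 motifs was in 16.1% of members and 23.2% of all regions. These shares too were not adjusted for base content, which differed between the groups. A match is a description of letters and not a bound site.

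The motifs also had positions within the members. In the 20-base bin at the centre of TSS-distal members there were 3.85 CTCF matches per 100 regions (300 matches), and 0.0257 at 240 bases. TAATCC there fell from 4.11 at the centre to 0.462 and 0.667 per 100 regions at 240 bases on either side, and CAGATG from 2.97 to 1.40 and 1.54. In promoter members the GC box fell from 18.6 to 5.53 and 5.89, the ETS letters from 3.27 to 0.527 and 0.546 and the NRF1 letters from 1.07 to 0.0383 and 0.115. CAGATG was not raised at the centre of promoter members, at 0.556 per 100 regions against 0.728 at the edge.

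**Figure D2:**
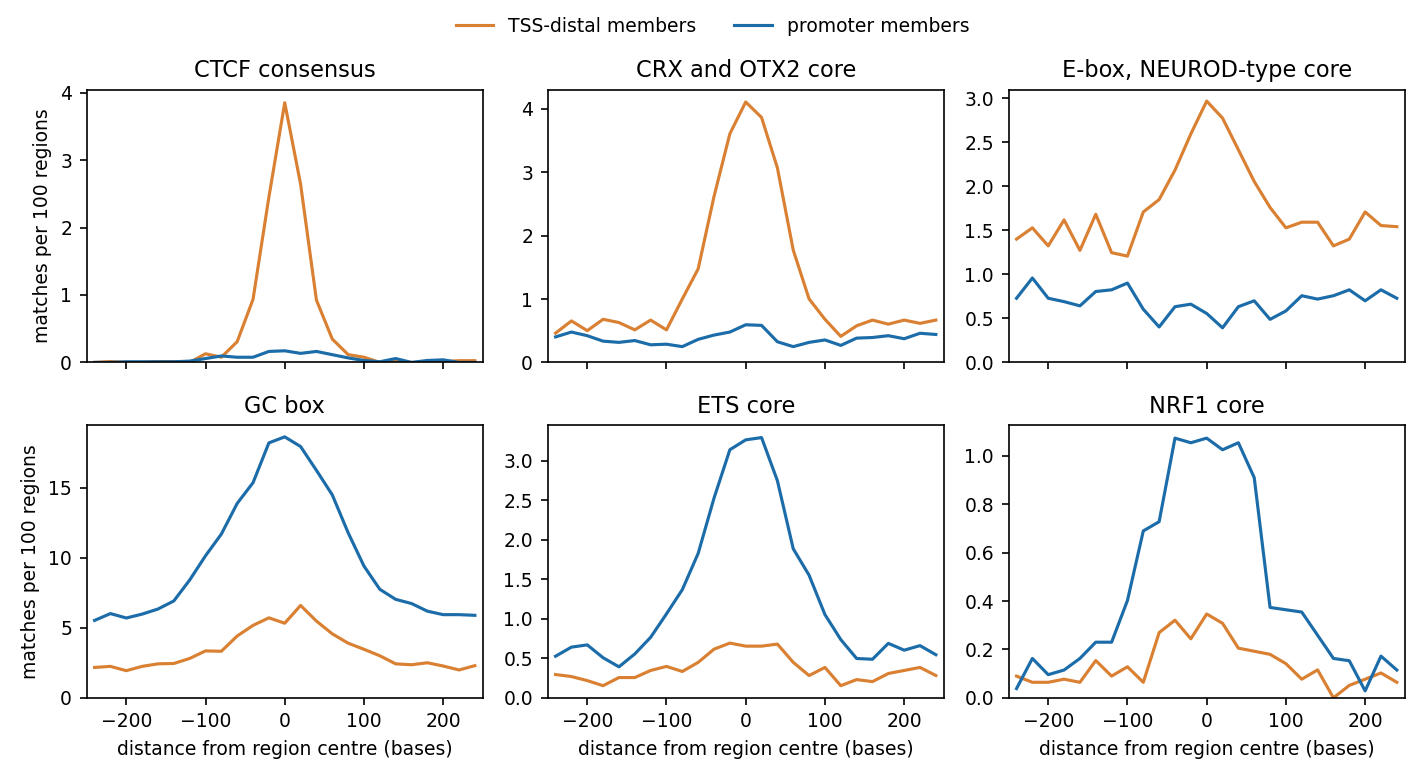
Motif matches per 100 regions in 20-base bins by distance in bases from the centre of the member, for promoter and TSS-distal members, 1 panel a motif. CTCF matches crowd at the centre of TSS-distal members (3.85 matches per 100 regions in the central bin), and the GC box at the centre of promoter members (18.6).

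In every library the members took more of the counted reads than all other regions together. Bipolar libraries gave 54.0% and 51.9% (pan-bipolar), 52.5% and 50.7% (ON) and 56.8% and 58.6% (OFF). Photoreceptor libraries gave 73.2% and 71.9% (rods), 67.0% and 66.0% (blue cones) and 64.2% and 63.1% (green cones). The photoreceptor libraries were all above the bipolar libraries. Promoter members alone took 38.1% to 55.3% and TSS-distal members 12.6% to 17.95%. The median member had 127 to 138 normalised counts in the 6 bipolar libraries, 207 and 195 for rods, 153 and 150 for blue and 148 and 142 for green cones, where other regions had medians of 3.89 to 24.9. The normalised counts are reads divided by 1 factor a library, so these levels depend on that scaling.

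**Figure D3:**
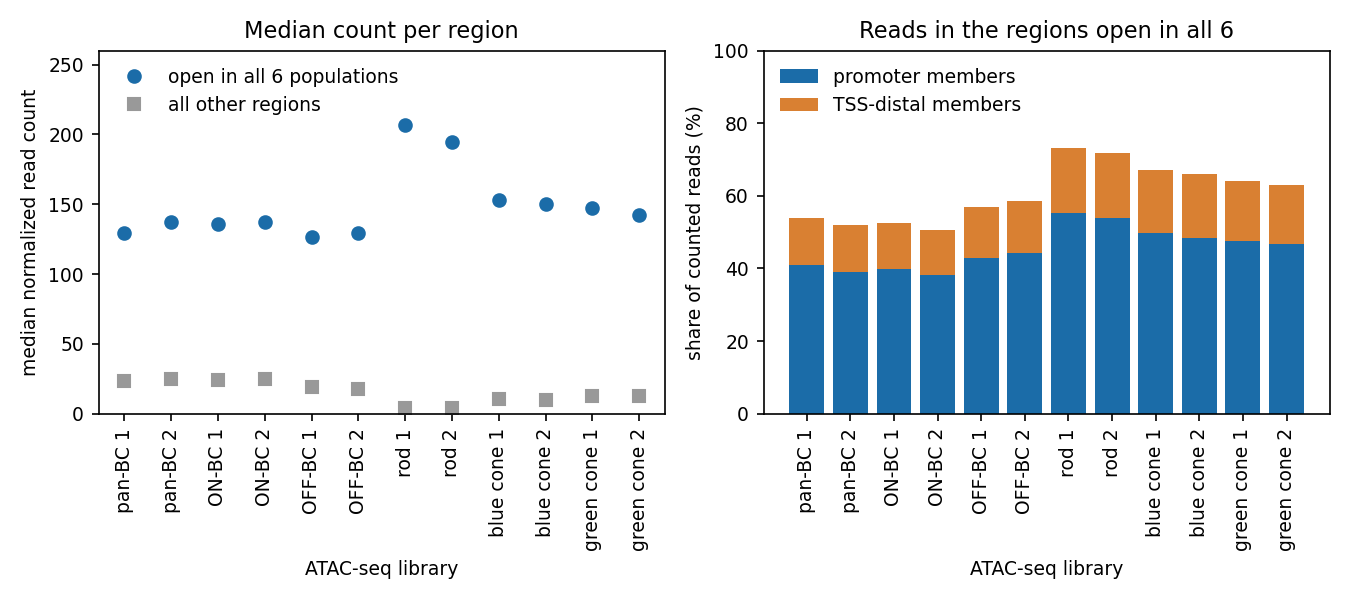
Left, median normalised ATAC-seq count of members and of other regions in each of the 12 libraries; right, percent of each library's counted reads in promoter and in TSS-distal members, stacked. The rod libraries have the highest member medians (207 and 195) and the highest share of reads in members (73.2% and 71.9%).

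The members were not equally open in all populations. The log2 range of a member's 6 population means had a median of 1.24, against 3.82 in other regions. The highest mean was in rods for 10146 members, in ON bipolar cells for 3553, in blue cones for 1841, in pan-bipolar cells for 1202, in OFF bipolar cells for 933 and in green cones for 558. A region was called different where limma's test against a 2-fold change gave an adjusted p under 0.05 over all 108448 regions tested, which included all 18233 members. In 1 or more of 5 comparisons 4690 members (25.7%) were called, beside 60.2% of all regions. These counts are from the libraries that chose the members and support nothing on their own.

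Between ON and OFF bipolar cells 91 members (0.499%) were called, 35 higher in ON and 56 in OFF, where 7.39% of all regions were (4.58% and 2.8%). Between pan-bipolar cells and rods the count was 3915 (21.5%), with 997 higher in pan-bipolar cells and 2918 in rods, beside 51.6% of all regions (40.3% and 11.2%). Members leaned to rods where all regions leaned to bipolar cells. The rule left out every region without peaks in rods, so this contrast was partly set in advance. Between pan-bipolar cells and blue cones it was 1527 (8.38%), 688 and 839, beside 35.9% (28.8% and 7.13%). Rods and blue cones differed at 637 members (3.49%), 219 higher in rods and 418 in blue cones, beside 10% (1.46% and 8.56%). Rods and green cones differed at 330 (1.81%), 55 and 275, beside 11.2% (0.278% and 10.9%). TMM scaling moved the median log2 fold change of all regions tested in the first 3 comparisons. It went from 0.146 to −0.067, from 1.156 to 0.963 and from 0.541 to 0.258. The share of called members that were higher in the first population went from 38.5% to 15%, from 25.5% to 14.6% and from 45.1% to 17.7%. DESeq2 called 47 members between ON and OFF bipolar cells, 51.1% of them higher in ON. The count test of edgeR called more members in each comparison: 187, 6320, 2966, 1061 and 657 in the order above, with 18.7%, 16%, 19.8%, 38.2% and 40.3% of them higher in the first population. With 1 library left out, the count between ON and OFF bipolar cells was 52 without ON bipolar 2 and 51 without OFF bipolar 1. Between pan-bipolar cells and blue cones it was 994 without pan-bipolar 2 and 1014 without blue cone 2. Between rods and blue cones it was 383 without rod 1, 417 without rod 2, 380 without blue cone 1 and 396 without blue cone 2, and between rods and green cones 214 without rod 1 and 164 without green cone 2.

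TSS-distal members were called more often than promoter members in each comparison, at 0.898% against 0.201% between ON and OFF bipolar cells, 23.5% against 20% between pan-bipolar cells and rods, and 11.1% against 6.37% between pan-bipolar cells and blue cones. Between rods and blue cones the shares were 5.35% and 2.11%, and between rods and green cones 2.73% and 1.12%.

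The steadiest and the most uneven distal members show the span. The smallest log2 range, 0.12, was at chr8:92818245-92818445, 8952 bases upstream of Mmp2, which encodes a matrix metalloproteinase; its 12 normalised counts lay between 155 and 203. The highest lowest value among distal members was at chr5:36581866-36582066, 431 bases downstream of the start of Tbc1d14, with 761 to 1290 normalised counts. The largest log2 range, 5.07, was in an intron of Med13l, which encodes a Mediator subunit, at chr5:118732262-118732462. It had 1016 and 1050 normalised counts for rods, 737 and 691 for blue and 630 and 528 for green cones, 175 and 150 in OFF bipolar cells, 55.2 and 79.8 in pan-bipolar cells and 35.8 and 24.9 in ON bipolar cells. All 6 photoreceptor libraries thus lay above all 6 bipolar libraries there.

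An intergenic member at chr11:86920461-86920661 was high in rods (789 and 818 normalised counts) and far lower in blue cones (20.7 and 47.7), with green cones between (208 and 194) and bipolar libraries at 18.9 to 41.0.

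The letters a distal member held went with its level by population. The 1488 TSS-distal members with TAATCC had median normalised counts of 146 (rods), 117 (blue cones) and 113 (green cones) against 76.3 to 78.4 in the bipolar populations, and a median log2 range of 1.74. The 6304 without it had 95.2 in rods, 80.7 to 84.6 in the cone and 82.6 to 84.1 in the bipolar populations, and a range of 1.27. The 898 with the CTCF consensus were more even, with medians of 55.0 in green cones to 71.6 in OFF bipolar cells and a range of 1.10, against 1.38 in the 6894 without it. They lay a median of 17940 bases from a start, 50.9% were intergenic, and 65.6% were in peaks of both double-sorted green cone libraries, below the 78.6% of those without it.

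Genes of retinal transcription factors had 35 TSS-distal members among the 367 TSS-distal regions nearest to them, at 17 of the 30 genes on the list. That is 9.54% of those regions, where 8.27% of all TSS-distal regions were members, so the share was near the background. Otx2, which specifies both photoreceptors and bipolar cells, had 3 of 12, and they differed in pattern. The member 53637 bases downstream of its start, chr14:48608997-48609197, had 408 and 425 normalised counts in rods and 62.7 to 175 in all other libraries. The one 82179 bases downstream had 91.1 to 127 in pan-bipolar and ON bipolar cells, 62.0 and 61.3 in OFF bipolar cells and 25.3 to 48.8 in photoreceptors. At Esrrb, a nuclear receptor gene of rods, an intronic member 32258 bases downstream of the start, chr12:86453802-86454002, had 632 and 651 in rods, 254 to 376 in cones and 17.1 to 83.7 in bipolar libraries. At Rxrg, a retinoid receptor gene of cones, the member 133 bases downstream of the start had 24.9 and 48.8 in rods and 186 to 312 in the other 10 libraries. Isl1 and Lhx4, homeodomain genes active in bipolar cells, had no member among 22 and 18 TSS-distal regions, and Vsx1, Nrl and Nr2e3 had none either.

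RNA, which the rule did not use, was compared by what lay at each gene's promoter. Of the genes measured, 10016 had at least 1 member at a promoter, 3328 had only other regions there and 10461 had none. After the filter on low counts 9584, 2285 and 2069 were tested, so a gene with a member promoter was rarely dropped while most genes without an open region were. At least 100 normalised counts in all 5 populations were reached by 6971 genes with a member promoter (69.6%), 10.3% of those with other regions and 2.36% of those with none. The opposite kind, at least 100 in some population and under 10 in another, numbered 310 (3.10%) among genes with a member promoter, 714 (21.5%) among those with other regions and 313 (2.99%) among those with none. Normalised counts are not divided by gene length, so these shares describe detection and are no ranking of genes. In sorted populations fewer cells of a type and less RNA per cell cannot be told apart.

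Many of these genes still differed between populations. In 1 or more of 4 comparisons 4221 of the genes tested (44.0%) were called by limma, against 81.6% of genes with other regions and 67.4% with none. Between pan-bipolar cells and rods 3342 were called (34.9%; 43.6% of all 14024 genes tested), 1638 higher in pan-bipolar cells and 1704 in rods. As shares these were 17.1% and 17.8%, beside 27.8% and 15.8% of all genes, so the excess of bipolar-high genes seen overall was not seen here. Genes with other regions at the promoter had 60.1% higher in pan-bipolar cells and 10.98% in rods. Between pan-bipolar cells and blue cones 2630 were called (27.4%, beside 36.3%), 1272 higher in pan-bipolar cells (13.3%, beside 22.7%) and 1358 in blue cones (14.2%, beside 13.7%). Between rods and blue cones 1107 were called (11.6%, beside 15.9%), 414 higher in rods (4.32%, beside 4.63%) and 693 in blue cones (7.23%, beside 11.3%). Between ON and OFF bipolar cells 258 were called (2.69%, beside 6.55%), 131 higher in ON (1.37%, beside 2.95%) and 127 in OFF (1.33%, beside 3.6%). Genes that passed the filter only through 1 population had to differ, and how many did was not counted.

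**Figure D4:**
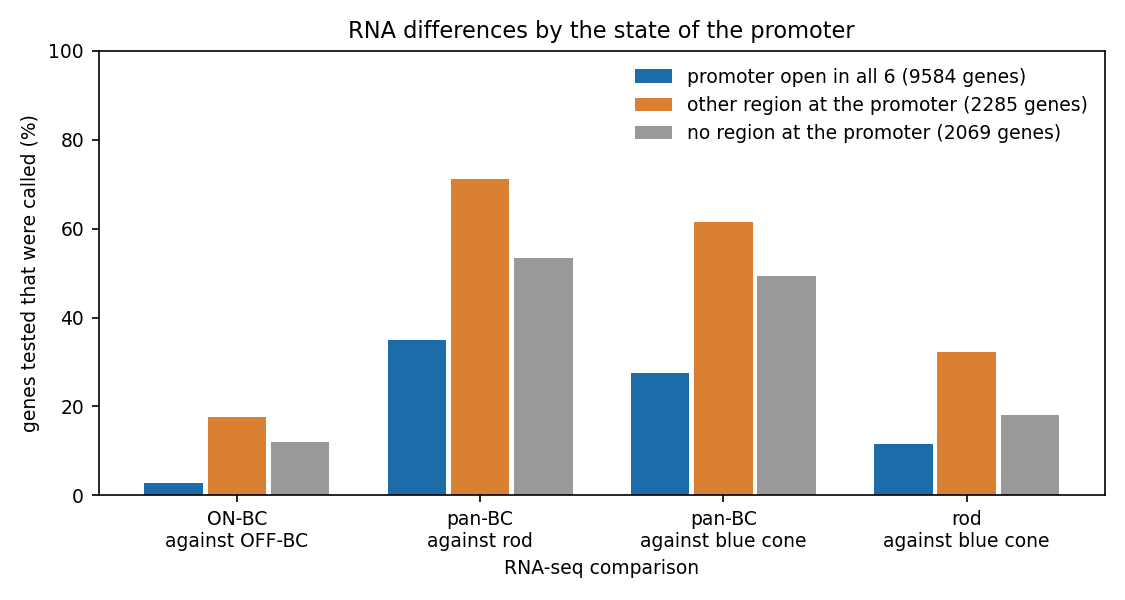
Percent of genes tested that were called by limma in each of 4 RNA comparisons, for genes with a member promoter, with other regions only and with no region at the promoter. Genes with a member promoter have the lowest bar in each comparison (2.69% to 34.9%).

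Genes with a member promoter could differ in RNA while the promoter was not called. Of the 1638 higher in pan-bipolar cells than rods, 73.8% had no called member promoter, 233 had 1 higher in pan-bipolar cells and 197 had 1 higher in rods. Of the 1704 higher in rods, 75.9% had none called, 378 had 1 higher in rods and 32 had 1 higher in pan-bipolar cells. Among 6242 genes without a call in RNA, 79.3% had none called, 1142 had a promoter higher in rods and 149 higher in pan-bipolar cells. The median log2 fold change of promoter accessibility, pan-bipolar over rods, was −0.28 for genes higher in pan-bipolar cells, −0.74 for those higher in rods and −0.72 for those not called. Between rods and blue cones 92 of 693 blue-cone-high genes (13.3%) had a promoter higher in blue cones and 2 had 1 higher in rods, while 86.4% had none called. Of genes not called in RNA there, 0.472% had a promoter higher in blue cones and 98.9% had none called. Between ON and OFF bipolar cells 130 of 131 ON-high and 121 of 127 OFF-high genes had no called member promoter, beside 99.9% of genes not called in RNA, so nearly any group of genes would show this.

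Among the genes with the largest differences between ON and OFF bipolar cells, Prkca, the protein kinase C of rod bipolar cells, had 9037, 9025 and 6656 normalised counts in ON cells and 105, 66.1 and 533 in OFF cells. The groups did not overlap, and the log2 fold change was 5.71 (SE 0.48, limma adjusted p = 1.86e-06). Its promoter had mean normalised ATAC-seq counts of 142 in ON, 189 in OFF, 283 in rods and 211 in blue cones, with no call. Drd2, the dopamine D2 receptor gene, had 836, 1101 and 837 RNA counts in ON cells and 13.4, 8.41 and 47.5 in OFF cells (log2 fold change 5.62, SE 0.60, limma adjusted p = 2.4e-05). Its promoter was also higher in ON than OFF cells, at means of 283 and 76.7, and was 23.4 in rods. In the opposite direction Igsf3, an immunoglobulin superfamily gene, had 89.8, 81.3 and 59.5 in ON and 6087, 5221 and 5119 in OFF cells (log2 fold change −6.15, SE 0.22, limma adjusted p = 7.36e-11), with promoter means of 86.5 and 220. Smtn, Glt28d2 and Hcrtr1 completed the 5 for ON cells, and Pid1, Crnde and Dnaic1 were also among the 5 for OFF cells.

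Between bipolar cells and rods, Cdc25c, the gene of a cell-cycle phosphatase, had 730, 873 and 815 normalised RNA counts in pan-bipolar cells and was listed at 0 in all 3 rod libraries. Its promoter, which the rule requires to be open in rods, had mean normalised ATAC-seq counts of 1030 there and 463 in pan-bipolar cells, a difference not called. Kcnk3, a leak potassium channel, had 5802, 5284 and 5236 RNA counts in pan-bipolar cells and 8.73, 9.22 and 17.3 in rods (log2 fold change 8.80, SE 0.22, limma adjusted p = 1.41e-14), and its promoter was called higher in pan-bipolar cells, at means of 147 and 38.0. Trnp1, a nuclear protein gene, had 8959, 9233 and 8572 against 15.5, 9.22 and 38.9 (log2 fold change 8.88, SE 0.34, limma adjusted p = 2.07e-12) with promoter means of 133 and 113, not called. Rod-high genes showed the same spread. Gulp1, an engulfment adaptor, had 3.19, 1.01 and 4.89 in pan-bipolar cells and 1759, 2148 and 1811 in rods (limma adjusted p = 8.01e-12), with promoter means of 159 in pan-bipolar cells and 138 in rods, not called. Glb1l2, a galactosidase-like gene, had 55.3, 59.5 and 79.5 against 16080, 15530 and 16190 (log2 fold change −7.94, SE 0.20, limma adjusted p = 1.46e-14), and its promoter was called higher in rods, at means of 198 and 827. Drd2 and Gfod1, and Gramd2, Nipal1 and Kpna2, completed the 5 in each direction. For Kcnk3 and Kpna2 the pan-bipolar mean did not lie between those of its subsets. Kcnk3 had 5441 in pan-bipolar, 2761 in ON and 1946 in OFF bipolar cells, and Kpna2 had 9.76, 125 and 95.2.

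Between bipolar cells and blue cones, Rgs16, a regulator of G-protein signalling, had 4990, 5768 and 4437 normalised RNA counts in pan-bipolar cells and 10.5, 15.9 and 10.4 in blue cones (log2 fold change 8.59, SE 0.24, limma adjusted p = 2.41e-13). Myo7a, a myosin gene of Usher syndrome, was listed at 1.06, 0 and 0 in pan-bipolar cells and had 694, 489 and 479 in blue cones (limma adjusted p = 4.52e-12). The pan-bipolar value did not lie between those of its subsets, which had 46.2 to 67.1 in ON and 53.7 to 94.9 in OFF bipolar cells. Its promoter means were 70.2 in pan-bipolar cells, 91.5 in blue cones and 68.7 in rods, with no call in any comparison. Bub1b, a spindle checkpoint kinase, had 37.2, 15.1 and 36.7 against 6711, 7652 and 6864 (log2 fold change −7.95, SE 0.30, limma adjusted p = 6.67e-12) and promoter means of 256 and 284, also not called. Here too ON (88.7 to 187) and OFF bipolar cells (93.8 to 145) both lay above pan-bipolar cells. Drd2, Cdc25c, Nuak1 and Ube2ql1 were the other genes higher in pan-bipolar cells, and Pde6c, Gulp1 and Gm10637 those higher in blue cones. The pan-bipolar mean of Ube2ql1, 736, was above those of ON (588) and OFF bipolar cells (64.7).

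Rods and blue cones differed most at Kcnj14, an inwardly rectifying potassium channel, with 4747, 5225 and 5641 normalised RNA counts in rods and 10.5, 13.7 and 5.18 in blue cones (log2 fold change 8.999, SE 0.28, limma adjusted p = 2.86e-13). Accessibility moved with it: its promoter had means of 490 in rods, 24.4 in blue cones, 111 in green cones and 48.4 in pan-bipolar cells. Ece1, endothelin-converting enzyme, had 56.3, 60.4 and 75.7 in rods and 16420, 15800 and 15570 in blue cones (log2 fold change −7.95, SE 0.13, limma adjusted p = 2.7e-16), with promoter means of 54.7 and 245, called higher in blue cones. Igsf3 was also among the largest, at 50.5, 89.1 and 108 in rods against 17220, 19300 and 13380 in blue cones (log2 fold change −7.69, SE 0.22, limma adjusted p = 1.68e-13), its promoter at 126 and 436. Nipal1, Glt28d2, Ptpru and St8sia1 completed the rod side, and Cltb, Ppm1j and Cdkl1 the blue cone side.

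**Figure D5:**
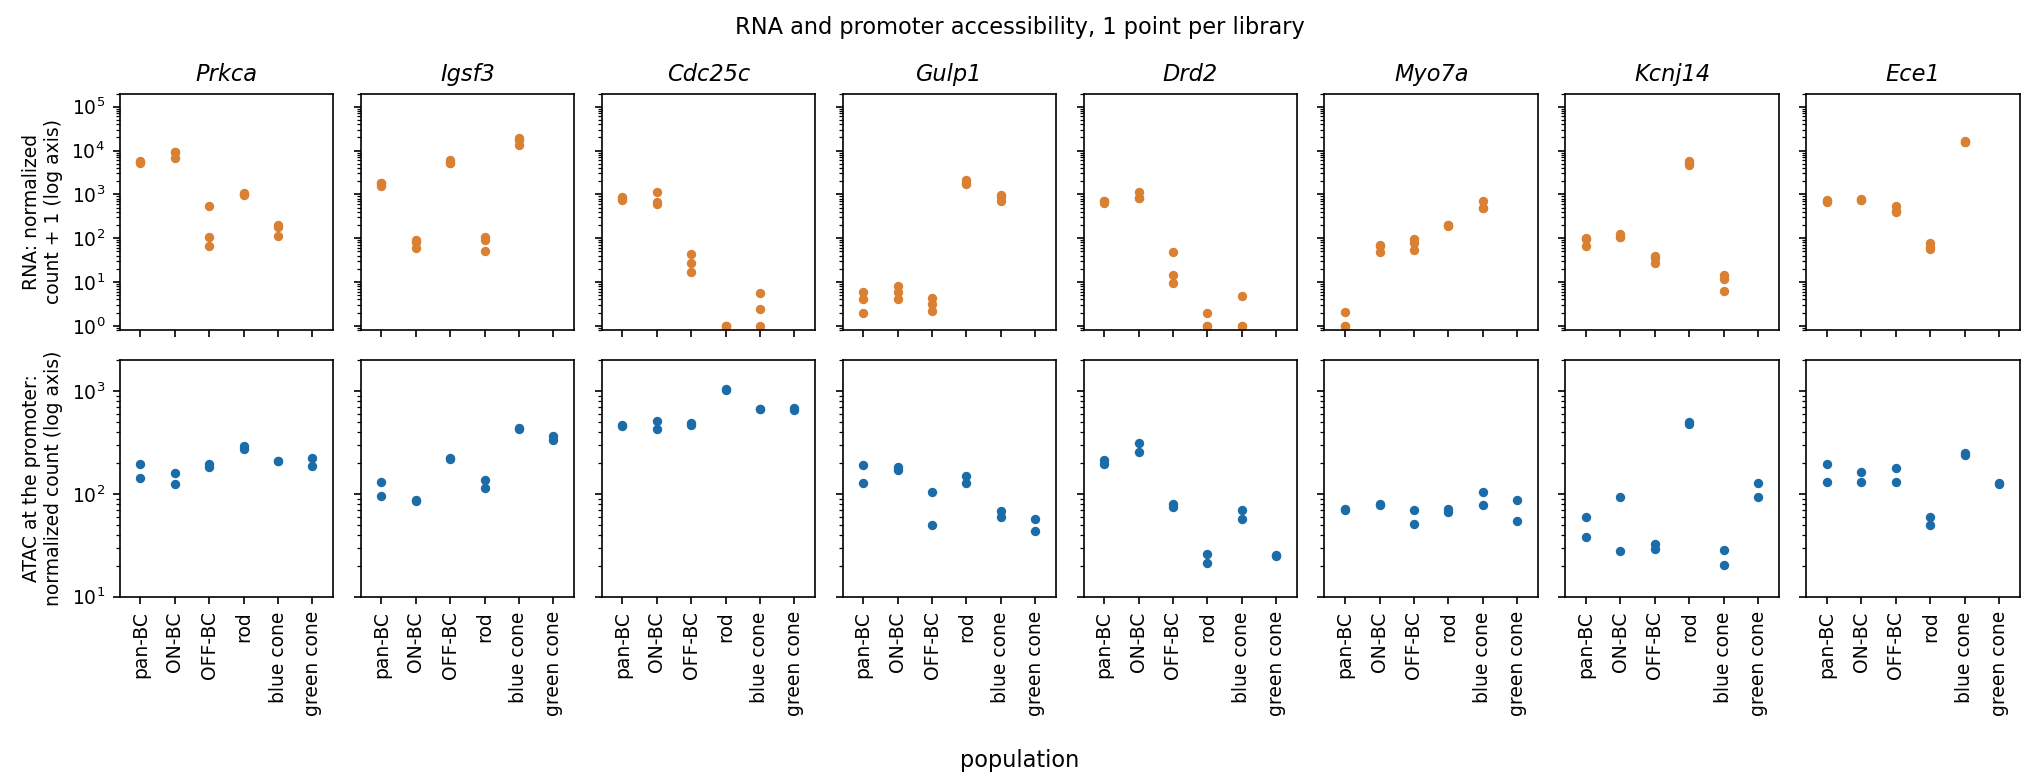
RNA (top) and promoter ATAC-seq (bottom) in normalised counts by library for 8 genes with a member promoter, on log axes; RNA has no green cone libraries. The promoter of Cdc25c is open in all 12 libraries (426 to 1041 normalised counts) as the rule requires, and its RNA is listed at 0 in rods, whereas Kcnj14 is high in rods in both assays.

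General genes mostly had member promoters. So did most genes tested, 9584 of 14024, and 42.1% of all genes classed. Of 31 proteasome subunits 30 did, and none of them was called between ON and OFF bipolar cells. Psmb7, Psma6, Psma7 and Psmb6, 4 of the 30, were called higher in pan-bipolar cells than in rods. Of all genes tested with a member promoter, 17.1% were called higher in pan-bipolar cells and 17.8% in rods, so that count is near the background. All 17 general promoter factors had a member promoter, and 7 were higher in rods than pan-bipolar cells with 1 lower (median log2 fold change −0.89, against −0.15 over genes with a member promoter and 0.21 over all genes tested). Zfp143, a zinc-finger activator of housekeeping promoters, had mean normalised RNA counts of 372 in pan-bipolar cells, 2320 in rods and 1273 in blue cones (pan-bipolar over rods −2.64 on the log2 scale, SE 0.16, limma adjusted p = 4.24e-08). Usf2, an E-box factor, had 562, 163 and 217. CTCF and cohesin genes were all 9 at member promoters, with 1 called between pan-bipolar cells and rods. It was Stag2, a cohesin subunit (684 and 4573, log2 fold change −2.73, SE 0.14, limma adjusted p = 3.83e-09), while Ctcf itself had means of 1278 in pan-bipolar cells, 2152 in rods and 1407 in blue cones. Of 17 housekeeping reference genes 13 had a member promoter, and Ppia, a prolyl isomerase often used as a reference, was higher in pan-bipolar cells than rods at 1167 and 66.6 (log2 fold change 4.11, SE 0.21, limma adjusted p = 4.68e-10). Ppia and Rps18 have many near-identical copies in the genome, so their counts are uncertain. Tbp, the TATA-binding protein gene, had 1104 in pan-bipolar cells, 1716 in rods and 1178 in blue cones, not called.

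Of genes that define retinal cells, member promoters were at 10 of 30 transcription factors and 7 of 29 phototransduction genes. They were at 4 of 15 genes of the ON bipolar cascade and 1 of 11 OFF bipolar markers. Beside these, 42.1% of all genes classed and 9584 of the 14024 genes tested had one. Of the 10 transcription factors, 2 were higher in pan-bipolar cells than rods and 7 in rods, beside 17.1% and 17.8% of all genes tested with a member promoter. Crx, the photoreceptor homeodomain gene, had mean normalised RNA counts of 9552 in pan-bipolar cells, 64910 in rods and 41410 in blue cones (pan-bipolar over rods −2.76, SE 0.14, limma adjusted p = 5.22e-09), and its promoter was 271, 544 and 205, not called. Esrrb had 50.5 in pan-bipolar cells, 4864 in rods and 279 in blue cones (pan-bipolar over rods −6.64, SE 0.29, limma adjusted p = 1.79e-11), and its promoter was 28.2, 668 and 225. Six6, a homeodomain gene of eye development, had 755, 31.6 and 4401 (rods over blue cones −7.10, SE 0.15, limma adjusted p = 3.97e-15), and its promoter 75.5, 23.1 and 369. At both, RNA and promoter had the same order of the 3 populations. Nfib, a nuclear factor I gene, had 1293 in pan-bipolar cells and 30.8 in rods (5.38, SE 0.18, limma adjusted p = 9.02e-13), with promoter means of 104 and 84.7, not called.

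Gnb3 makes the G-protein beta subunit shared by cones and ON bipolar cells. Its normalised RNA counts were 77740, 74980 and 76120 in pan-bipolar cells, 83170, 86840 and 108700 in ON cells, 14020, 8977 and 18240 in OFF cells, 218400, 218300 and 209500 in blue cones and 3341, 4433 and 4699 in rods. Rods were lowest, and no population overlapped another. ON over OFF cells was 2.81 on the log2 scale (SE 0.23, limma adjusted p = 1.77e-05) and rods over blue cones −5.71 (SE 0.23, limma adjusted p = 2.28e-11). Its pair of member promoters, 1 of them printed above, had means of 180 and 126 normalised ATAC-seq counts in pan-bipolar cells, 278 and 169 in rods and 333 and 205 in blue cones, with no call in any comparison. Cngb1, a rod channel subunit, had RNA means of 485 in pan-bipolar cells, 21040 in rods and 254 in blue cones (pan-bipolar over rods −5.43, SE 0.24, limma adjusted p = 2.85e-11). Sag, the rod arrestin, had 17250, 357100 and 213000 (−4.38, SE 0.47, limma adjusted p = 4.42e-06). All 4 ON genes, Prkca, Strip2, Gnao1 and Gnb5, were called higher in ON than OFF bipolar cells, beside 1.37% of genes tested with a member promoter. The list names genes of ON bipolar cells, so this direction was largely set in advance. Gnao1, the G-protein alpha subunit of the mGluR6 cascade, had 14630 in ON and 3014 in OFF cells (2.30, SE 0.15, limma adjusted p = 4.87e-06).

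Some genes had members at separate starts; Gnb5 and Ctbp2 are singled out here after their values were seen. At Gnb5, a G-protein beta subunit of the regulators that end signalling, the member at chr9:75314050-75314250 had 253 and 270 normalised ATAC-seq counts in pan-bipolar cells and 80.2 and 92.2 in rods. The other, at chr9:75306176-75306376, had 28.0 and 37.6 in pan-bipolar cells and 400 and 425 in rods. The pair differed in opposite ways. Gnb5 RNA, counted over the whole gene, was 14340 in pan-bipolar cells and 24290 in rods. At Ctbp2, whose alternative start yields the ribbon protein RIBEYE, the CpG-poor member at chr7:133015536-133015736 had 124 and 125 in pan-bipolar cells, 518 and 565 in rods and 540 and 468 in blue cones, while the CpG-rich member at chr7:133124264-133124464 had 72.0 and 55.3, 192 and 151.1, and 111 and 107. Both Ctbp2 members were lower in pan-bipolar cells than in rods.

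Synapse and cilium genes had member promoters in most cases, at 15 of 18 and 19 of 23. Most genes tested also had one, 9584 of 14024. Of the 15 ribbon synapse genes 1 was higher in pan-bipolar cells than rods and 2 in rods. The shares over all genes tested with a member promoter were 17.1% and 17.8%. Cplx3, a complexin of ribbon synapses, had mean normalised RNA counts of 48310 in pan-bipolar cells and 1089 in rods (5.49, SE 0.18, limma adjusted p = 6.75e-13), and Cplx4 had 9879 and 69750. Of the cilium transport genes 12 were higher in rods and 1 in pan-bipolar cells (median log2 fold change −2.10, against −0.15 over genes with a member promoter and 0.21 over all genes tested). Bbs7, a BBSome subunit, had 511 in pan-bipolar cells and 15550 in rods (−4.92, SE 0.16, limma adjusted p = 1.11e-12), and Cep290, a transition-zone protein, 1455 and 5554. Ift20, an intraflagellar transport gene, went the opposite way, at 5282 and 1298 (2.03, SE 0.10, limma adjusted p = 5e-08). None of the proteasome, promoter factor, cohesin, ribbon or cilium genes with a member promoter was called between ON and OFF bipolar cells, where 2.69% of all genes tested with a member promoter were, so that 0 is near the background. The lists' medians there ran from −0.18 to 0.08, and −0.02 over all genes tested.

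The most even genes among the 3181 with a member promoter and a mean of at least 1000 normalised RNA counts were Blmh, Gm16039, Gtf2h3, Tex264 and Arfrp1. Blmh, a cysteine protease, had means of 3146 in pan-bipolar, 2985 in ON and 3199 in OFF bipolar cells, 3077 in rods and 3139 in blue cones, and Gtf2h3, a subunit of the general transcription factor TFIIH, had 1009 to 1084.

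Some members lay at the promoters of more than 1 gene. Of promoter members 1564 (14.98%) lay at the starts of 2 or more genes, against 5.40% of other promoters. Of 996 such pairs with both genes tested, 382 had only 1 gene called between pan-bipolar cells and rods. Both were called the same way in 82 and opposite ways in 26. Of all genes tested with a member promoter, 34.9% were called there. Whether such pairs differed from genes that share no promoter was not tested. An example of a shared promoter is that of Dnaic1, a dynein chain of motile cilia, and Fam219a. Dnaic1 had 17.5, 29.4 and 46.2 normalised RNA counts in ON and 2298, 1468 and 1418 in OFF bipolar cells (−5.82, SE 0.34, limma adjusted p = 4.35e-08), while Fam219a had means of 40.1 and 79.6 and was not called. The shared promoter had 736 in ON and 583 in OFF cells.

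Genes with a member promoter supplied 82.0% ± 0.0983 (SD, n = 3) of RNA reads in pan-bipolar cells, 82.8% ± 0.364 in ON and 81.7% ± 0.317 in OFF bipolar cells, 80.5% ± 0.279 in blue cones and 72.0% ± 1.7 in rods (n = 3 each). All 3 rod libraries (70.2% to 73.6%) lay below all others. The difference was 10.1 percentage points between pan-bipolar cells and rods, 1.504 between pan-bipolar cells and blue cones, 1.08 between ON and OFF cells and −8.54 between rods and blue cones. Each had an exact two-sided permutation p of 0.1, the smallest that 3 against 3 libraries can give, and 0.1 after adjustment over the 4 comparisons. The 10 most abundant genes of a library took 20.02% to 23.6% of reads in rods, where 3 of 10 had a member promoter, and 7.72% to 9.35% in bipolar libraries, where 6 to 8 did. Without them the difference between pan-bipolar cells and rods was −5.08 percentage points, so its direction rested on those genes, and that between ON and OFF cells was 0.0322 (exact permutation p = 0.9).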

How the data were processed

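The authors deposited, for ATAC-seq and for RNA-seq, a table of signal: read counts per region or gene divided by 1 size factor per library. They also deposited a peak list per library, with fold enrichment, −log10 p and q values and a score for each peak. Per the labels and the submitters' processing notes, reads were mapped to the mouse genome with Bowtie2 2.2.5 (ATAC-seq) or STAR 2.7.0d (RNA), peaks were called with MACS2 2.1.1 and reads counted with featureCounts or HTSeq; the study kept nucleosome-free fragments only. HOMER 4.8, Picard 2.19.0, SAMtools 1.3 and bedtools 2.24.0 are also named there. No per-sample column was left unused (0).

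A region was a member when its middle base (101 of 201) lay in a peak of both libraries of all 6 populations. Members and gene lists were chosen with earlier results of these data known. Starts came from RefSeq on GRCm38 (45756 transcripts of 26180 genes); 22511 genes matched by symbol and 1294 by an older symbol, 230 did not match, and 27 names that had turned into dates were left out. All 1212862 ATAC-seq and 230384 RNA values came out within 0.01 of a whole read once the factor was recovered, so count tests could be run as alternatives. The main test was limma 3.58.1 in R 4.3.3 on log2(signal + 1), 1 level per population over 12 ATAC-seq or 15 RNA-seq libraries, with treat against a log2 fold change of 1 and Benjamini-Hochberg adjusted p under 0.05, after edgeR's filter on low counts (14024 genes and 108448 regions tested). Fold changes are on that log2 scale, which understates the change of low genes. The scripts were tested on simulated data. Shares of RNA reads were compared by exact permutation of libraries. Alternatives were edgeR 4.0.16, DESeq2 1.42.0, TMM scaling, pseudocounts of 0.5 and 5, no filter, stricter peaks (−log10 q of at least 5), a promoter window of 500 bases on either side, leaving out each library, and a replicate block.

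Named genes were, by rule, the 5 with a member promoter and the largest log2 fold change in each RNA comparison and direction among those called without overlap of the groups, the 5 most even, and examples from 10 lists; named regions were those of highest lowest value and smallest or largest range. Replicates of every population differed by more than counting noise (chi-square per feature 2.22 to 4.19 in ATAC-seq and 6.75 to 64.3 in RNA). The files and tables were handled in Python 3.11.15 with pandas 2.3.3, numpy 2.4.6, scipy 1.17.1, pysam 0.24.0 and matplotlib 3.10.9.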

Additional observations from a re-analysis of the deposited data

How the results depend on the processing

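Of 261 alternative values, 37 moved and 4 reversed, and the other 220 were counted as the same. For a count of calls, the same meant within a fixed ratio of the main count. For a difference in RNA share it meant only the same direction, as no exact permutation p there could fall under 0.05. The promoter share of members was 59.5% with peaks of −log10 q of at least 5, 61.1% with the double-sorted green cones in place of the others, 61.6% with all 4 green cone libraries, 61.4% with a window of 500 bases on either side and 64.8% with GENCODE starts added (chosen after seeing the data), and 55.5% to 57.3% with 1 library left out. The share of members in both double-sorted green cone libraries was 97.2% for at least 1 library, 79.7% with the stricter peaks there, and 89.9% to 93.1% with 1 library left out. CTCF in TSS-distal members was 10.3% in the central part of the region, 14.4% beyond 5000 bases from a start and 13.0% without regions at GENCODE starts; TAATCC was 14.7%, 23.5% and 21.2%, and 18.2% with the stricter peaks. Members called in ATAC-seq numbered 187 by edgeR and 47 by DESeq2 between ON and OFF bipolar cells, and by edgeR 6320 between pan-bipolar cells and rods, 2966 between pan-bipolar cells and blue cones, 1061 between rods and blue cones and 657 between rods and green cones. With 1 library left out these ran from 51 to 82, 2883 to 4149, 994 to 1623, 380 to 695 and 164 to 355, and the members from 18242 to 19103. The RNA share reversed without the 10 most abundant genes (−5.08 points for pan-bipolar cells against rods, −4.92 against blue cones and 0.158 for rods against blue cones; ON against OFF bipolar cells fell to 0.0322, exact permutation p = 0.9) and, for pan-bipolar cells against blue cones, with the 500-base window (−1.34). With 1 library left out the RNA shares differed by 9.17 to 10.9, 1.40 to 1.66, 0.920 to 1.29 and −9.36 to −7.67 points, and RNA calls ran from 3103 to 3401, 2377 to 2642, 218 to 276 and 972 to 1179, in the order pan-bipolar against rods, pan-bipolar against blue cones, ON against OFF bipolar cells and rods against blue cones. ON and OFF libraries of the same number also share the postnatal day, and the labels do not say whether they share animals. Correlations of their deviations were −0.0763, 0.222 and −0.0649 in RNA and 0.000174 in ATAC-seq. Those of differently numbered RNA libraries ran from −0.147 to 0.212. With a replicate block 257 genes in place of 258 and 99 members in place of 91 were called. The difference in RNA share then had an exact permutation p of 0.25, the smallest that 3 pairs can give. The causes were not tested. Among the genes named by size, the call of Pde6c between pan-bipolar cells and blue cones was lost with DESeq2, and no other such call was. Where only 2 libraries stand for a population, ATAC-seq depth may limit what can be called at weak members, which was not tested.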
